A study of Mus musculus with 4 samples.

Results

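The macrophages of pancreatic islets were examined in droplet single-cell RNA sequencing libraries of mouse islets. Cells were assigned to the class by measured values, so the genes of the rule describe the members and are no result. A cell was chosen by UMIs (molecules counted once each) of at least 4 of the 7 genes C1qa, C1qb, C1qc, Lyz2, Tyrobp, Ctss and Csf1r, with Ins1 and Ins2 together under 5% of its UMIs. The rule found 286 macrophages among the 15416 cells that passed the filter on cells, out of 22218 deposited barcodes. The islets came from male wild-type mice (Pax4 WT) and from mice homozygous for a missense substitution knocked into the endogenous Pax4 allele (Pax4 HH), a germline change that every cell carries. Mice were fed a standard chow diet (SCD) and sampled at 12 weeks of age, or were fed a high-fat diet (HFD) for 4 weeks and sampled at 16 weeks. The 4 groups are WT SCD, HH SCD, WT HFD and HH HFD, each with 1 library of pooled islets from 2 to 3 mice. No combination of genotype and diet therefore has a replicate, no test between groups was made, and diet, age and library cannot be told apart.

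Macrophages are resident immune cells of the islet, where they lie close to blood vessels and beta cells. They take up secretory granules and cell debris, present peptides on MHC class II molecules, carry the surface integrin CD11c, and release cytokines and chemokines such as interleukin-1 beta and TNF when they are activated. Fos, Jun and Egr1 belong to the early response genes, which many cell types transcribe within minutes of a stimulus, and NF-kB is the transcription factor family through which inflammatory signals reach cytokine and chemokine genes.

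Library totals ran from 68011082 UMIs for WT HFD to 104810105 for HH HFD. The macrophages held 424250, 253909, 620404 and 718355 UMIs in WT SCD, HH SCD, WT HFD and HH HFD, the order used for all values of the 4 libraries, and their median UMIs per cell were 7062, 6580.5, 8976 and 5510.5. Of 22168 distinct barcodes, 50 occurred in more than 1 library. A single macrophage barcode also occurred in another library, and 0 barcodes were macrophages in both. A doublet caller marked 0 of the macrophages, but it marked only 0.0374% of cells in HH HFD and 0.281% in HH SCD, so it had not worked in the former and little can be read from it in the latter.

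Most members held the full set of genes used by the rule. All 7 genes had a UMI in 246 of the 286 cells, 18 held 6, 1 held 5 and 21 held 4. Just outside, 32 cells with little insulin held 3 of the 7 genes. A further 24 cells met the gene rule but had insulin UMIs between 5% and 10% of their total, 14 of them in WT HFD and 0 in HH SCD. Another 32 were above 10%. Among the members, 2 cells also passed the endothelial rule, 2 passed the lymphocyte rule, and 7 had 2% or more of their UMIs from the hormone genes Gcg, Sst, Ppy and Pyy.

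Macrophage markers that the rule did not use were present in all 4 libraries, while markers of other immune cells were low but not all absent. Adgre1, which encodes the macrophage antigen F4/80, had 297 CPM in WT SCD and 354 in HH SCD, against 308 in WT HFD and 335 in HH HFD, where CPM is the count of a gene scaled to the summed macrophage UMIs of a library. Cd68, a lysosomal membrane protein of phagocytes, had 438, 425, 377 and 376 CPM. The neutrophil genes S100a8, S100a9, Retnlg, Cxcr2 and Ly6g had 0 UMIs in each of the 4 sums, whereas Csf3r, the receptor of granulocyte colony-stimulating factor, had 37.7, 15.8, 37.1 and 34.8 CPM. The 13 monocyte genes summed to 585, 768, 413 and 713 CPM. The 11 dendritic cell genes together had between 146 and 322 CPM. Flt3 and Zbtb46 were at or below 6.45 CPM and 19.7 CPM. Other genes of that list were higher, with Siglech at 58.9, 55.1, 58.0 and 37.6 CPM and Batf3 at 23.6, 15.8, 83.8 and 64.0 CPM. The 11 B and T lymphocyte genes summed to 156, 138, 340 and 358 CPM, with Cd79a and Ms4a1 at 0 in WT SCD, HH SCD and WT HFD. The 8 endothelial genes summed to 18.9 CPM in WT SCD and 315 in HH SCD, against 22.6 in WT HFD and 242 in HH HFD, so they were higher in both HH libraries. Of the 2 members that also passed the endothelial rule, 1 lay in HH SCD and 1 in HH HFD, and their part in these sums was not tested.

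Macrophages made up between 1% and 3% of cells. They were 56 of 3521 cells in WT SCD, or 1.59% (exact 95% Clopper-Pearson interval 1.20 to 2.06), and 38 of 3554 in HH SCD, or 1.07% (0.758 to 1.46). They were 68 of 2992 cells in WT HFD, or 2.27% (1.77 to 2.87), and 124 of 5349 in HH HFD, or 2.32% (1.93 to 2.76). These and all later intervals cover counting error only. In SCD the share in HH differed from that in WT by -0.521 percentage points (interval -1.09 to 0.0320). In HFD the difference was 0.0455 points (-0.668 to 0.714), and both intervals hold 0. The share in HFD exceeded that in SCD by 0.682 points in WT (-0.00659 to 1.40) and by 1.25 points in HH (0.696 to 1.79), so the interval excluded 0 in HH and not in WT. Whether the genotypes differ in this was not tested.

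The comparisons depended on the denominator. Beta cells were 2209 of 3521 cells in WT SCD, 2146 of 3554 in HH SCD, 1346 of 2992 in WT HFD and 3153 of 5349 in HH HFD. Among cells with insulin under 5% of UMIs, macrophages were 4.67% in WT SCD and 2.89% in HH SCD, against 4.95% in WT HFD and 5.97% in HH HFD. On this base HH differed from WT by -1.78 points in SCD (-3.37 to -0.234) and by 1.02 points in HFD (-0.596 to 2.57). The HFD excess was 0.278 points in WT (-1.46 to 1.98) and 3.07 points in HH (1.63 to 4.46). For every 100 endothelial cells there were 31.3, 23.6, 39.5 and 29.0 macrophages, and for every 100 beta cells 2.54, 1.77, 5.05 and 3.93. The filter on cells moved them further. With the study's bounds on UMIs and on genes both required, among them at least 2000 genes per cell, the shares were 0.536%, 0.348%, 2.61% and 0.661%, and the median macrophage had 1823, 1727, 2315.5 and 1685 genes. The methods of the study join these bounds by "or", so its own filter may have kept more cells. Requiring both kept most macrophages of WT HFD and removed most of the other libraries.

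**Figure D1:**
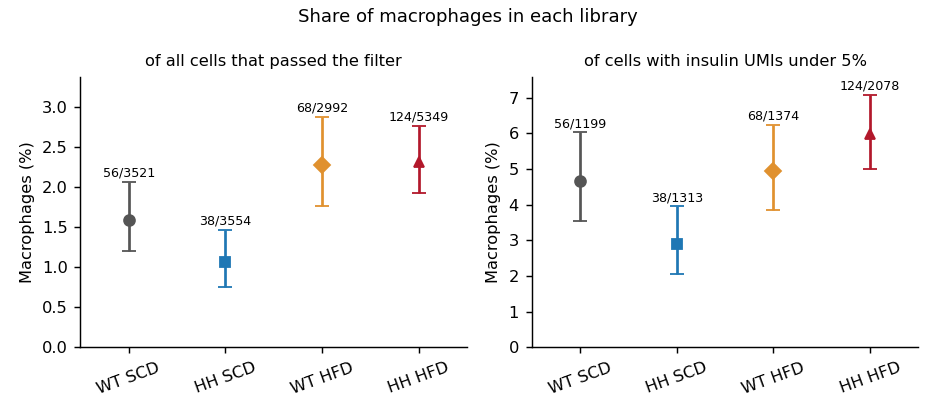
Macrophages as a percentage of all cells that passed the filter (left) and of cells with insulin UMIs under 5% (right), 1 point per library with its exact 95% Clopper-Pearson interval. On the left both HFD libraries, at 2.27% and 2.32%, lie above both SCD libraries, at 1.59% and 1.07%, whereas on the right WT SCD at 4.67% and WT HFD at 4.95% lie close together.

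Genes of antigen presentation and the lipid carrier gene Apoe were among the most abundant of the macrophages in all 4 libraries. The 8 MHC class II genes together had between 73320 and 87812 CPM and the 17 lipid handling genes between 31566 and 38691, most of it from Apoe, against 145905 to 158061 for the 84 ribosomal protein genes. Cd74, the invariant chain that guides MHC class II molecules, was the most abundant single gene outside the mitochondrial and ribosomal protein genes, with 35397 CPM in WT SCD and 36395 in HH SCD, against 41139 in WT HFD and 35342 in HH HFD. Apoe, the apolipoprotein that macrophages use to export cholesterol, followed with 29351, 32311, 36745 and 32948 CPM. The MHC class II chains H2-Aa, H2-Ab1 and H2-Eb1 each had between 11392 and 16214 CPM, with WT HFD the highest library for each. The highest of the remaining libraries was 14226 CPM for H2-Aa, 12190 CPM for H2-Ab1 and 11744 CPM for H2-Eb1. Genes that the rule used, given here as a description, included C1qa with 4648, 4805, 6670 and 6401 CPM and Lyz2 with 5091, 4356, 4162 and 5245 CPM. Ins2 had between 11169 and 12691 CPM in the macrophages of every library, so insulin RNA was among the most abundant RNAs of cells that do not make it.

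To place the class among the other cells of the islet, macrophages were set against endothelial cells and lymphocytes of the same libraries with edgeR's quasi-likelihood test and the library as a block. The 4 libraries replicate this contrast. Against 940 endothelial cells, 1956 of 7594 genes were higher (25.8%) and 2024 lower (26.7%) at a Benjamini-Hochberg adjusted p under 0.05. Against 639 lymphocytes, 998 of 4909 genes were higher (20.3%) and 388 lower (7.90%). WT SCD brought only 2 lymphocytes to the latter contrast, and without that library 585 genes were lower. Leaving out WT HFD, which holds most lymphocytes, gave 628 higher and 141 lower genes, and leaving out HH SCD gave 248 lower genes. Of 4787 genes in both contrasts, 718 were higher in macrophages in both.

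The genes with the largest excess in both contrasts were cytokines, chemokines, receptors and a protease. Il1b, the gene of interleukin-1 beta, was higher by 13.74 on the log2 scale against endothelial cells (SE 0.36, edgeR quasi-likelihood adjusted p = 1.1e-08) and by 9.87 against lymphocytes (SE 0.86, adjusted p = 1.9e-28). Ms4a7, a macrophage membrane protein, was higher by 12.14 (SE 0.33) and 10.82 (SE 0.84). Ccl12, a ligand of the chemokine receptor CCR2, was higher by 11.08 and 11.35, and Mmp12, macrophage elastase, by 11.03 and 11.08. Cx3cr1, the fractalkine receptor, was higher by 10.71 and 9.81. The complement receptor gene C3ar1, the Fc receptor gene Fcgr3, the chemokines Ccl2, Ccl3, Ccl6, Ccl9 and Cxcl2, and Adgre1, Klra2 and Tnfsf13b complete the 15 genes. Each of the 15 was higher in 4 of 4 libraries in both contrasts. They were chosen by these same folds, so this was close to fixed and is no further support. Several, such as Ccl6 and Klra2, had 0 CPM in both other classes and were tested only through their level in macrophages. A fitted fold of a gene that is near 0 in the other class depends on the prior count, and no bound is implied.

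The gene lists are read against the shares over all genes, 25.8% higher and 26.7% lower against endothelial cells, and 20.3% higher and 7.90% lower against lymphocytes. All 14 chemokines tested were higher than in endothelial cells and 11 of 12 were higher than in lymphocytes. In every list a member was tested only where it passed the filter on low counts. Genes near 0 in the other class, such as Ccl6 and Ccl8 at 0 CPM in both, passed through the macrophages. Their direction was thereby fixed, and the counts of such lists are no independent support. Lysosomal genes were higher for 19 of 20 against endothelial cells, with 1 lower, and for 19 of 19 against lymphocytes. Fc and phagocytic receptors were higher for 10 of 12 and 10 of 10. MHC class II genes were higher for 7 of 7 against endothelial cells and for 7 of 8 against lymphocytes. Of the 81 ribosomal protein genes tested, 80 were higher than in endothelial cells and 1 was higher than in lymphocytes. Among cell cycle genes, 3 of 7 were lower than in lymphocytes and 0 were higher. Against endothelial cells 2 of 10 cell cycle genes were higher, a share below that of all genes. Of the dendritic cell genes, 3 of 4 tested were higher than in endothelial cells, namely Siglech, Batf3 and Wdfy4, with Zbtb46 lower. Siglech and Wdfy4 had 0 CPM and Batf3 1.36 CPM in endothelial cells, so they were tested through the macrophages and their direction was fixed. Against lymphocytes 2 of 3 dendritic cell genes were higher. The neutrophil list had 1 gene tested, Csf3r, which was higher than in endothelial cells. At 0.23 CPM there against 31.3 in macrophages, it passed the filter through the macrophages, so its direction was fixed.

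The diet comparison asked which macrophage genes differed between HFD and SCD in each genotype. Genes were compared where the mean of both libraries was 50 CPM or more, and a gene was counted when its ratio reached 2-fold. A gene high in a single library can reach the minimum through it, which favours a large ratio in that direction. In WT, 183 of 2184 genes were higher in HFD (8.38%) and 198 were lower (9.07%). In HH, 162 of 2230 were higher (7.26%) and 187 were lower (8.39%). These 2 comparisons share no library. Of the 1999 genes compared in both, 158 were higher in WT and 146 in HH, and 59 were higher in both, which is 37.3% and 40.4% of each list. For genes lower in HFD, 171 and 165 gave 113 in both, or 66.1% and 68.5%. Across these genes, which are not independent replicates, Pearson's r of the log2 ratios was 0.655. The split between higher and lower genes in WT depended on the scaling. With median-of-ratios size factors the median of all genes moved from 0.14 to -0.07 and the higher share of genes past 2-fold went from 48.0% to 30.4%, whereas in HH it went from 46.4% to 38.5%. Under the study's filter on cells 568 genes were past 2-fold in HH in place of 349.

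Most cytokine genes compared were lower in HFD in both genotypes. Il1b had 5138 CPM in WT SCD and 6014 in HH SCD, against 1217 in WT HFD and 1029 in HH HFD, so both SCD libraries lay above both HFD libraries. The log2 ratio of HFD to SCD was -2.08 in WT (interval -2.20 to -1.96), or 4.22-fold lower, and -2.55 in HH (-2.68 to -2.42), or 5.85-fold lower. Il1a, the gene of interleukin-1 alpha, had 1047, 796, 108 and 29.2 CPM, with log2 ratios of -3.28 (-3.67 to -2.90) and -4.77 (-5.49 to -4.12). Il12b, a subunit of interleukin-12, had 169 UMIs in 13 cells of WT SCD, 94 in 8 cells of HH SCD, 0 in WT HFD and 16 in 3 cells of HH HFD. Taking a count of 3 in WT HFD as the limit that 0 allows, its log2 ratio there was -6.36, and the counting interval, which also covers the SCD count, ended at -6.05. In HH it was 16.6-fold lower. Il12b came from few cells in every library.

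Tnf did not follow the others to the same extent. It had 1433 CPM in WT SCD and 870 in HH SCD, against 725 in WT HFD and 718 in HH HFD, so the WT SCD library stood apart and the remaining 3 lay close together. Its log2 ratio was -0.98 in WT (-1.16 to -0.80) and -0.28 in HH (-0.51 to -0.04). The anti-inflammatory Il10 had 158, 74.8, 12.9 and 22.3 CPM. The interleukin-1 receptor antagonist Il1rn had 229, 74.8, 3.22 and 11.1 CPM, which rests on 2 UMIs in WT HFD, and its log2 ratio there was -6.15 (-9.21 to -4.26). Of the 7 cytokines that reached the minimum in WT, 5 were lower by 2-fold and 0 higher, with a median log2 ratio of -3.28 beside 0.14 over all genes. Il10, Il1rn and Il12b reached the minimum only through SCD, where they were high, so this count and median favour that direction. The member above 0 was Tgfb1, the gene of transforming growth factor beta 1, at 0.30 (-0.11 to 0.73). The share of all genes lower by 2-fold was 9.07% in WT and 8.39% in HH. In HH, 3 of 5 cytokines were lower and 0 higher, with a median of -2.55 beside 0.08. Il1a and Il12b, at 29.2 and 22.3 CPM in HH HFD, reached the minimum only through SCD.

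Most chemokines were lower in HFD as well. Ccl4 was the most abundant of them, with 21101 CPM in WT SCD and 18582 in HH SCD, against 7313 in WT HFD and 7563 in HH HFD, log2 ratios of -1.53 (-1.58 to -1.48) and -1.30 (-1.35 to -1.24). Ccl3 had 6060, 5876, 2690 and 2407 CPM. The neutrophil attractant Cxcl2 had 6388, 6538, 1984 and 2023 CPM, and its log2 ratio was -1.69 in both genotypes. Its neighbour Cxcl1 had 269, 540, 4.84 and 12.5 CPM, from 114, 137, 3 and 9 UMIs, and log2 ratios of -5.80 (-8.10 to -4.21) and -5.43 (-6.59 to -4.46). Ccl7, an attractant of monocytes, had 365, 567, 4.84 and 166 CPM, from 155, 144, 3 and 119 UMIs, and 1 cell held 89.6% of them in HH SCD. Its log2 ratios were -6.24 in WT (-8.53 to -4.67) and -1.78 in HH (-2.14 to -1.42), the former being the lowest of the list. Cxcl10, an attractant of T cells, had 2572, 2989, 1065 and 934 CPM. For each of these 6 genes the 2 SCD libraries lay above the 2 HFD libraries. No share of all genes with such a separation was taken, so this describes the 6 genes and no more.

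Other chemokines did not share that pattern. Cxcl16 had 870, 831, 827 and 792 CPM, with log2 ratios of -0.07 in both genotypes and intervals that held 0. Ccl12 had 493, 469, 514 and 354 CPM. Cxcl9 differed in sign between the genotypes, at 1.59 in WT and -3.04 in HH, from 3 or fewer cells in each SCD library. In WT, 10 of 14 chemokines were lower by 2-fold and 1, Cxcl9, was higher. Their median log2 ratio was -1.48 beside 0.14 over all genes, of which 9.07% were lower and 8.38% higher. Cxcl1 and Ccl7 reached the minimum in WT only through SCD, as Cxcl1 did in HH, and Cxcl9 reached it in WT only through HFD. In HH, 10 of 15 were lower and 0 higher, with a median of -1.29 beside 0.08, against 8.39% lower and 7.26% higher over all genes.

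Several receptors and regulators on the NF-kB path were also lower in HFD. Cd14, the co-receptor for bacterial lipopolysaccharide, had 1895 CPM in WT SCD and 1989 in HH SCD, against 379 in WT HFD and 429 in HH HFD. Rel, which encodes the NF-kB subunit c-Rel, had 783, 768, 226 and 136 CPM, and Nfkb1, which encodes the p105 precursor, had 417, 335, 127 and 97.4 CPM. Mir155hg, the host gene of a microRNA that is induced in activated macrophages, had 276, 197, 4.84 and 13.9 CPM. Nfkbia, which encodes the inhibitor IkB alpha, differed from these genes, with 1822, 1449, 1449 and 1771 CPM and log2 ratios of -0.33 (-0.47 to -0.19) in WT and 0.29 (0.12 to 0.46) in HH. Of 9 NF-kB feedback genes, 3 were lower by 2-fold in WT and 5 in HH, against 9.07% and 8.39% of all genes, and their medians were -0.54 and -1.24 beside 0.14 and 0.08. The costimulatory Cd40 had 127, 86.7, 30.6 and 16.7 CPM and Cd83 had 1162, 1020, 306 and 227 CPM.

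Early response genes were higher in HFD in both genotypes. Fos, a subunit of the AP-1 transcription factor, had 387 CPM in WT SCD and 398 in HH SCD, against 3254 in WT HFD and 3166 in HH HFD. Both HFD libraries lay far above both SCD libraries, by 3.07 on the log2 scale in WT (2.84 to 3.31) and by 2.99 in HH (2.70 to 3.29). Its partner Jun had 309, 295, 2548 and 2353 CPM, with log2 ratios of 3.04 (2.79 to 3.31) and 2.99 (2.66 to 3.35). Btg2, an antiproliferative gene, had 269, 256, 2171 and 2304 CPM. Atf3, a stress-induced transcription factor, had 651, 528, 2174 and 2247 CPM, with log2 ratios of 1.74 (1.55 to 1.93) and 2.09 (1.83 to 2.36). Egr1 had 443, 260, 1193 and 1245 CPM.

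Among the largest ratios of HFD to SCD outside these genes were Klf2, Rhob and Gm26532. Klf2, a transcription factor that restrains macrophage activation, had 54.2, 35.4, 722 and 569 CPM, and log2 ratios of 3.74 (3.13 to 4.41) and 4.01 (3.07 to 5.14). Rhob, a small GTPase, had 63.6, 23.6, 397 and 338 CPM. The heat shock gene Hspa1a had 111, 78.8, 790 and 354 CPM and its near-identical copy Hspa1b had 47.1, 43.3, 385 and 149 CPM. Reads that match both copies could have been lost or split, so their levels are uncertain. Hspa1b reached the minimum of the comparison only through HFD in both genotypes. Gm26532, a gene model with no assigned function, had 11.8, 27.6, 221 and 89.1 CPM. Of the 20 early response and heat shock genes, 12 were higher by 2-fold in WT and 0 lower, with a median of 1.42 beside 0.14 over all genes, of which 8.38% were higher and 9.07% lower. In HH, 12 were higher and 1 was lower, with a median of 1.54 beside 0.08, against 7.26% higher and 8.39% lower over all genes. The exception was Nr4a1, an orphan nuclear receptor, with 127, 291, 124 and 106 CPM.

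**Figure D2:**
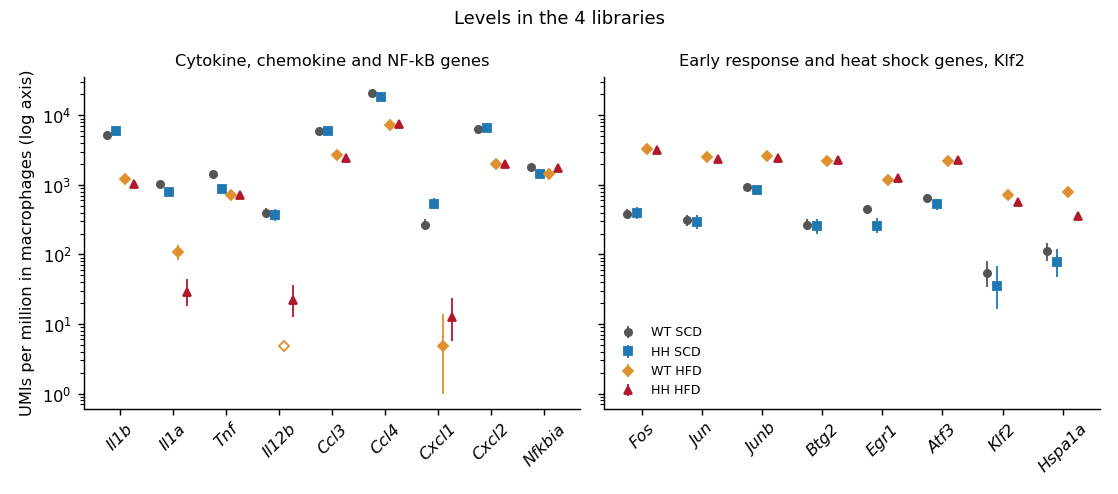
Level of 9 cytokine, chemokine and NF-kB genes (left) and of Fos, Jun, Junb, Btg2, Egr1, Atf3, Klf2 and Hspa1a (right) in macrophages per library. The genes were picked for display. Values are CPM on a log axis with exact 95% counting intervals. The open diamond is Il12b in WT HFD, with 0 UMIs, drawn at the limit of 3 counts. Both HFD libraries lie below both SCD libraries on the left for all genes but Nfkbia, most closely for Tnf, and above them on the right for all 8 genes.

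Promoter sequences are printed for genes that differed in opposite directions, Cxcl1 and Cxcl2 against Fos and Atf3, and for Nfkbia, a feedback gene that did not reach 2-fold. Each is the 120 bases before the annotated start of transcription in RefSeq (GRCm38.p6), 5′ to 3′ on the strand of the gene. Capitals mark the matched letters, on either strand. Cxcl1 (chr5:90891125-90891244, plus strand) and Cxcl2 (chr5:90903779-90903898, plus strand), which were lower in HFD, hold an NF-kB motif that starts at -71 and -97 from the start of transcription, and the capitals there join 2 overlapping matches. Nfkbia (chr12:55492648-55492767, minus strand), which had log2 ratios of -0.33 and 0.29, holds an NF-kB motif at -29. Fos (chr12:85473770-85473889, plus strand) and Atf3 (chr1:191183334-191183453, minus strand), which were higher in HFD, hold the letters TGACGT or their reverse complement, the core of the cyclic AMP response element, at -66 and -8.
Cxcl1: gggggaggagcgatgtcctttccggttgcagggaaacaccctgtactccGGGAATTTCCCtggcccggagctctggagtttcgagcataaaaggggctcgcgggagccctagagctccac
Cxcl2: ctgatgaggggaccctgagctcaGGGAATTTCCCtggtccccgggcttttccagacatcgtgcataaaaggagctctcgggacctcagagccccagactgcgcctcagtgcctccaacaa
Nfkbia: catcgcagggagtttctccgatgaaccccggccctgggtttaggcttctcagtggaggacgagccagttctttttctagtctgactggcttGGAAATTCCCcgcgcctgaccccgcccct
Fos: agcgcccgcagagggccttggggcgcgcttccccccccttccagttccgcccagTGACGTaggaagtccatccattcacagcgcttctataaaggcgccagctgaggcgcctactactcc
Atf3: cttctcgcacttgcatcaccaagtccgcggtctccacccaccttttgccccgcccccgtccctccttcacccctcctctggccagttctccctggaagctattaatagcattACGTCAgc

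The printed Cxcl1 and Cxcl2 promoters carry the same run of matched letters. In the 250 bases before the start, both strands searched, the NF-kB motif occurred in 1281 of 32851 RefSeq promoters (3.90%). The promoter table held entries for 11 of 17 chemokine genes, 9 of 11 cytokine genes, 7 of 10 NF-kB feedback genes and 15 of 20 early response genes, some with several promoters, and Ccl2, Ccl4, Ccl7 and Egr1 were not scanned. The NF-kB motif occurred in 4 of 11 chemokine promoters, those of Ccl9, Cxcl1, Cxcl10 and Cxcl2, in 1 of 11 cytokine promoters, that of Il6, and in 8 of 12 promoters of NF-kB feedback genes. It also occurred in 3 of 16 promoters of early response genes, those of Fos, Fosb and Ier3. TGACGT occurred in 2125 of all promoters (6.47%) and in 4 of 16 of early response genes, those of Atf3, Btg2, Dusp1 and Fos. It occurred as often in promoters of NF-kB feedback genes, 3 of 12, those of Nfkbid, Rel and Tnfaip3. It also occurred in 1 of 11 chemokine promoters, that of Cxcl1, and in 1 of 11 cytokine promoters, that of Il6. The AP-1 motif TGANTCA occurred in 6.75% of all promoters, in 0 of the 16 of early response genes, in 3 of 11 of cytokines, in 2 of 11 of chemokines and in 3 of 12 of NF-kB feedback genes. The serum response element occurred in 1.47% of all promoters and in 1 of the 16, that of Zfp36. A match describes these letters and is not evidence of a bound factor.

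**Figure D3:**
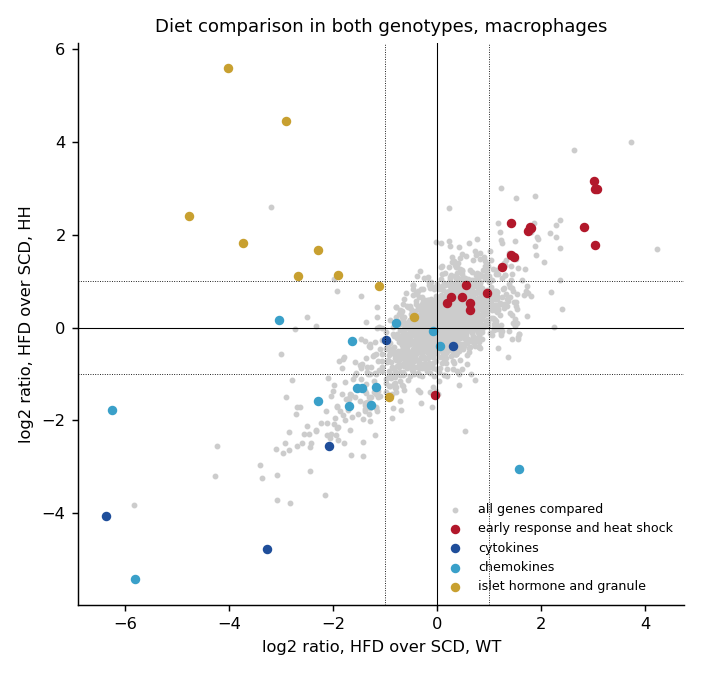
Log2 ratio of HFD to SCD in WT (x axis) and HH (y axis) for 1999 genes that reached 50 CPM in both comparisons, without the genes of the rule, with 4 gene lists coloured and dotted lines at 2-fold. Early response genes lie mostly at the upper right, most cytokines and chemokines at the lower left, and islet hormone genes mostly at the upper left, where the genotypes differ in sign.

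For a set of 8 early response genes and a set of 6 cytokine and chemokine genes, the difference was spread over the macrophages and not carried by a few. The sets leave out Nr4a1, which was not higher in HFD. They also leave out Il12b, which came from few cells, and Ccl7, where a single cell held most UMIs of HH SCD. Each cell was thinned to 2000 UMIs, which kept 55, 36, 68 and 122 cells. The genes Fos, Jun, Junb, Atf3, Egr1, Btg2, Zfp36 and Dusp1 together took a median of 0.3% of the UMIs of a cell in WT SCD and 0.35% in HH SCD, with highest cells at 1.65% and 1.15%. In HFD the medians were 1.675% and 1.7%, just above the highest SCD cell at 1.65%. Cells of a library are not replicates of its group. The 6 genes Ccl3, Ccl4, Cxcl2, Il1b, Tnf and Il1a took a median of 4.1% in WT SCD and 3.5% in HH SCD, against 1.25% in WT HFD and 1.4% in HH HFD. Their highest cells were at 11.65% and 11.05% in SCD and at 4.9% and 5.35% in HFD. For both sets, every library held thinned cells without a UMI of the set.

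**Figure D4:**
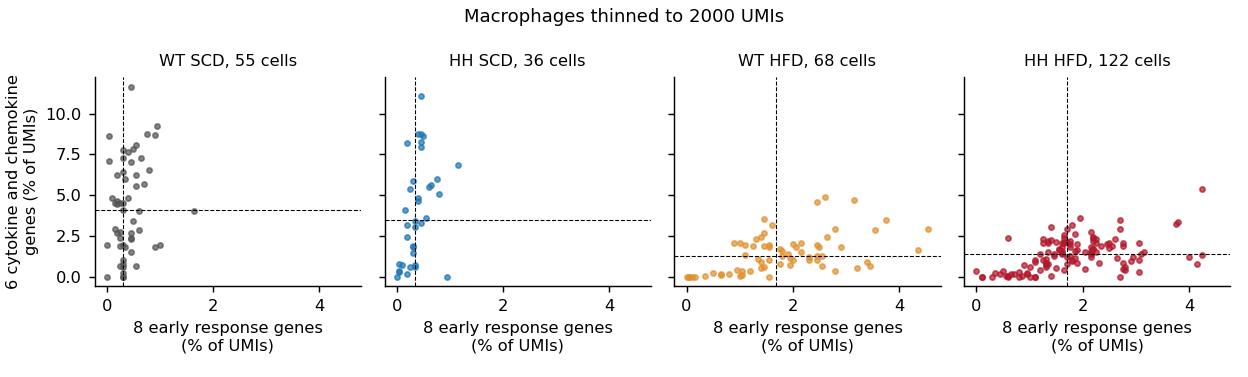
Each point is a macrophage thinned to 2000 UMIs, with the percentage of its UMIs from 8 early response genes on the x axis and from 6 cytokine and chemokine genes on the y axis, in 1 panel per library with dashed lines at the medians. SCD cells spread upward at early response values of at most 1.65%, whereas HFD cells spread to the right and stay at or below 5.35% on the y axis.

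Part of this pattern was shared with other cells of the same libraries. NF-kB feedback genes were also lower in HFD in endothelial cells, with medians of -1.24 in WT over 7 genes and -0.73 in HH over 6. The early response list had a median of -0.35 in endothelial cells of WT and -0.21 of HH, and of -0.13 and -1.05 in beta cells, against 1.42 and 1.54 in macrophages. Fos was higher in endothelial cells too, by 0.88 in WT and 1.03 in HH, and Jun by 1.32 and 1.15. Junb went the other way, at -0.74 and -1.15 in endothelial cells against 1.47 and 1.52 in macrophages, and so did Btg2, at -0.88 and -0.66 against 3.01 and 3.17. Klf2 was higher in endothelial cells by 1.60 and 1.29. These ratios come from the same 4 libraries, and the difference between classes was not tested. The median mitochondrial share of UMIs in macrophages was 3.68% in WT SCD and 4.29% in HH SCD, against 2.64% in WT HFD and 2.94% in HH HFD, and its part in the result was not tested.

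**Figure D5:**
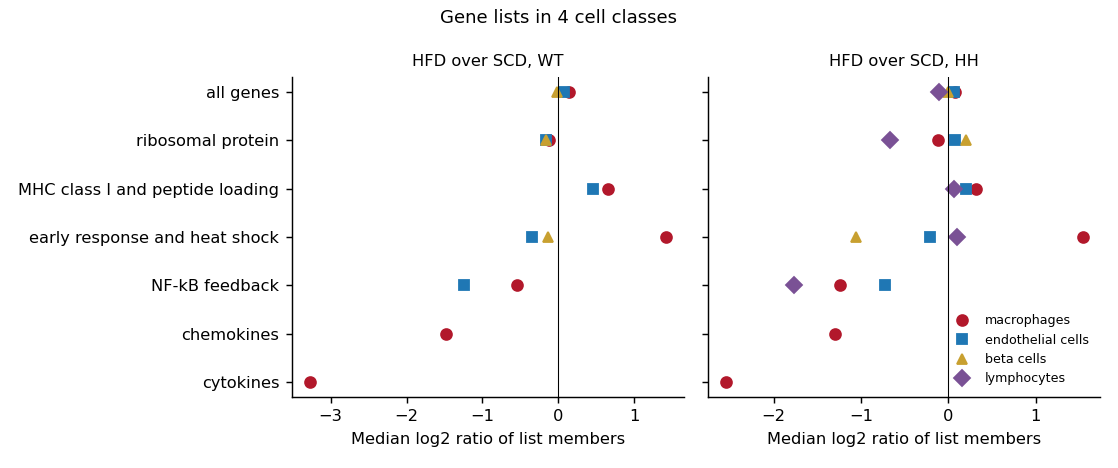
Median log2 ratio of HFD to SCD over the members of 6 gene lists and over all genes, in macrophages, endothelial cells, beta cells and, in HH, lymphocytes; lists with fewer than 3 members at 50 CPM in a class are not drawn. The early response list lies at 1.42 and 1.54 in macrophages and at or below 0.10 in the other classes shown, while the NF-kB feedback list lies below 0 in all classes drawn.

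Interferon response genes were split between directions in WT and were mostly below 0 in HH. Rsad2, the antiviral enzyme viperin, had 759 CPM in WT SCD and 614 in HH SCD, against 106 in WT HFD and 44.5 in HH HFD. Isg15, a ubiquitin-like modifier, had 1261, 961, 638 and 365 CPM, and Ifit1 had 460, 268, 85.4 and 47.3 CPM. In WT, Irf7, the transcription factor that amplifies interferon signals, went the other way, from 125 to 292 CPM. Of 13 members, 3 were higher and 2 lower by 2-fold in WT, and 0 were higher and 4 lower in HH, with medians of -0.09 and -0.64 beside 0.14 and 0.08 over all genes. Over all genes 8.38% were higher and 9.07% lower in WT, and 7.26% and 8.39% in HH.

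Parts of the MHC class I and CD11c macrophage lists were higher in HFD, more so in WT. By 2-fold, 3 of 8 MHC class I genes and 3 of 5 CD11c genes were higher in WT, against 8.38% of all genes. In HH 1 of 8 and 0 of 5 were, against 7.26%, and whether the genotypes differ was not tested. All 8 MHC class I and peptide loading genes compared had ratios above 0 in both genotypes, with medians of 0.65 in WT and 0.31 in HH beside 0.14 and 0.08 over all genes. Psmb9, a subunit of the immunoproteasome, had 75.4 CPM in WT SCD and 110 in HH SCD, against 255 in WT HFD and 184 in HH HFD. B2m, the light chain of MHC class I, had 2560, 2265, 3512 and 2833 CPM. The MHC class I list also had medians of 0.46 and 0.21 in endothelial cells. For MHC class II, 7 of 7 genes were above 0 in WT, with a median of 0.27, and 2 of 7 in HH, with a median of -0.04.

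Itgax, which encodes CD11c, had 104, 118, 211 and 188 CPM, with log2 ratios of 1.03 (0.52 to 1.55) and 0.67 (0.09 to 1.29). Cd72, an inhibitory C-type lectin, had 488, 484, 1009 and 787 CPM. Cx3cr1 had 196, 264, 429 and 412 CPM. For each of the 3 genes the HFD libraries lay above the SCD libraries in level. This too describes the named genes only, since no share of all genes with such a separation was taken. After thinning, the share of macrophages with a UMI of Cx3cr1 was 27.3% in WT SCD and 41.7% in HH SCD, against 55.9% in WT HFD and 53.3% in HH HFD, against 67.9%, 65.8%, 83.8% and 76.6% unthinned. In beta cells, which lack the gene, the thinned share was between 0% and 0.0636%. Thinned to 1000 UMIs, it was 12.5%, 10.5%, 39.7% and 31.5% in macrophages, with both HFD libraries again above both SCD libraries. The share with Itgax was 16.4%, 25%, 27.9% and 24.6%, and the libraries of the diets overlapped. Of the same list, Cd86 had log2 ratios of -0.47 and -0.91 and Adgre1 of 0.05 and -0.08.

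Lysosomal genes differed little between diets, and single lipid handling genes were higher in HFD. Lysosomal genes had medians of 0.22 in WT and 0.31 in HH over 18 genes, and 1 member, Ctsd, was past 2-fold in HH, where 7.26% of all genes were higher. Ctsd, the protease cathepsin D, had 302, 201, 571 and 546 CPM. The lipid handling list had medians of -0.01 and -0.05, with 1 of 10 higher and 1 lower by 2-fold in WT, and 3 of 12 higher and 0 lower in HH. Over all genes 8.38% were higher and 9.07% lower in WT, and 7.26% and 8.39% in HH. The genes past 2-fold in HH were Plin2, the cholesterol exporter gene Abcg1 and the fatty acid binding protein gene Fabp5, and 1 cell held 78.7% of the Fabp5 UMIs of HH HFD. Within the list Plin2, which coats lipid droplets, had 198 CPM in WT SCD and 209 in HH SCD, against 416 in WT HFD and 498 in HH HFD, with log2 ratios of 1.07 (0.71 to 1.44) and 1.26 (0.84 to 1.70). Trem2, a lipid-sensing receptor, had 318, 209, 305 and 242 CPM and log2 ratios with intervals that held 0. Ribosomal protein genes had medians of -0.12 and -0.11 over 80 genes, with 0 past 2-fold. Ccr2, the receptor through which monocytes are recruited, had 84.9, 82.7, 164 and 214 CPM, and it was found in 10.9%, 8.33%, 23.5% and 23.8% of macrophages thinned to 2000 UMIs. Thinned to 1000 UMIs, the shares were 8.93%, 13.2%, 2.94% and 11.3%, so the order of the diets was not the same at the 2 depths and no direction is read from the shares. Mki67, a marker of dividing cells, was found in 4 of 55, 1 of 36, 0 of 68 and 4 of 122 thinned macrophages, and in 12.5%, 10.5%, 2.94% and 5.65% unthinned. The 0 of 68 has an upper Clopper-Pearson limit of 5.28%, which bounds cells with a UMI at that depth and not dividing cells.

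The genotype comparison asked which macrophage genes differed between HH and WT within a diet. In SCD, 42 of 2083 genes were higher (2.02%) and 42 were lower (2.02%) by 2-fold or more. In HFD, 36 of 2289 were higher (1.57%) and 33 were lower (1.44%). These 2 comparisons share no library. Of the 1813 genes compared in both, 28 were higher in SCD and 30 in HFD with 4 in common, which is 14.3% and 13.3% of each list. Lower genes numbered 24 and 22 with 0 in common. Under the study's filter on cells, which leaves fewer macrophages, 396 genes were past 2-fold in SCD in place of 84 and 231 in HFD in place of 69. Pearson's r across genes was -0.07. Of the genes past 2-fold, 50% were higher in SCD, and this share ran from 38.5% with median-of-ratios size factors to 61.4% under the study's filter. In HFD it was 52.2%, and ran from 40.8% with 5 gate genes required to 61.5% under the study's filter.

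Islet hormone genes made up most of the largest genotype ratios, and for several of them 1 cell held most UMIs. In HFD, Ppy, the gene of pancreatic polypeptide, had 308 CPM in WT and 10136 in HH, a log2 ratio of 5.04 (4.83 to 5.26), with 91.3% of the HH UMIs in 1 cell. Sst, the gene of somatostatin, had 258 and 3994 CPM in HFD, with 96.0% of the HH UMIs in 1 cell, and 4193 and 82.7 CPM in SCD. Gcg, the gene of glucagon, had 579 and 4817 CPM in HFD, with 67.3% in 1 cell. In SCD it had 15661 CPM in WT and 910 in HH, with 96.0% of the WT UMIs in 1 cell. Pyy, Pcsk1n, Ttr, Resp18 and Pcsk2 completed the endocrine genes among the 10 highest in HFD. Some of these were found in many cells of HH HFD, Ttr in 73 cells with 45.5% of its UMIs in 1 cell, Resp18 in 39 with 26.5%, Pcsk1n in 36 with 29.6% and Pcsk2 in 25 with 28.4%. With the cells left out that held 2% or more of other hormones or passed another rule, the log2 ratio of Gcg in SCD was 0.30, and in HFD the ratios were -0.67 for Sst, -0.16 for Resp18, 0.05 for Pyy, 0.44 for Ppy, 0.69 for Gcg and 0.97 for Ttr. The hormone and granule list had a median of -0.99 in SCD and 2.75 in HFD.

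Beyond the hormones, few macrophage genes differed between genotypes in SCD. Among the 10 highest, Pmaip1, a pro-apoptotic gene, had 44.8 CPM in WT and 158 in HH, and Nr4a1 had 127 and 291 CPM. Mmp13, a collagenase, had 125 and 276 CPM. Cxcl9 had 42.4 and 414 CPM from 2 and 3 cells, and Lyz1 had 47.1 and 457 CPM with all HH UMIs in 1 cell. Lyz1 and Lyz2 are close paralogs, so reads between them may be uncertain. Atp6v1d, Samhd1, Cxcl1, Chga and Ppy also belonged to the 10 highest, with Chga at 1040 CPM in HH and 85.6% of these UMIs in 1 cell. Among the lowest, Tnfsf9, a costimulatory ligand, had 184 CPM in WT and 55.1 in HH. Glul, glutamine synthetase, had 217 and 67.0 CPM, and Il1rn had 229 and 74.8 CPM, a log2 ratio of -1.61 (-2.40 to -0.89). Tiparp, Eif4e and Chgb were the others besides Sst, Gcg, Ttr and Pyy. Medians of the inflammatory lists were -0.25 for cytokines, 0.03 for chemokines and -0.09 for early response genes, beside 0.02 over all genes. Some members passed 2-fold, with 2 of 8 cytokines lower, Il10 and Il1rn, and 3 of 15 chemokines higher, Cxcl1, Cxcl9 and Ccl8, against 2.02% of all genes in either direction. In HH SCD 1 cell held 96.9% of the Ccl8 UMIs. In HFD the medians of the 3 lists were -0.24, 0.03 and -0.07, beside -0.01 over all genes. There 1 of 5 cytokines was lower by 2-fold and 0 higher. Of 13 chemokines 2 were higher and 1 lower, against 1.57% and 1.44% of all genes. The highest was Ccl7 at 5.10, which rests on 3 UMIs in WT HFD.

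In HFD, interferon response genes were lower in HH. Ifit3 had 177 CPM in WT and 27.8 in HH, from 15 and 11 cells, a log2 ratio of -2.67 (-3.44 to -1.97). Irf7 had 292 and 98.8 CPM, at -1.56 (-1.98 to -1.16), from 30 of 68 and 25 of 124 cells, and 31.5% of its WT UMIs lay in 1 cell. Ifit2 had 211 and 102 CPM, Rsad2 had 106 and 44.5 CPM, and Bst2, a tetherin that retains viruses, had 1235 and 756 CPM. Of the 13 members, 5 were lower by 2-fold and 0 higher, 11 were below 0, and the median was -0.85 beside -0.01 over all genes, of which 1.44% were lower by 2-fold and 1.57% higher. In SCD the same list had a median of -0.18. Endothelial cells of the HFD libraries had a median of 0.15 over 12 of these genes, and the difference between the classes was not tested.

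The heat shock copies Hspa1a and Hspa1b were also lower in HH in HFD, with log2 ratios of -1.16 (-1.38 to -0.94) and -1.37 (-1.71 to -1.04). They were lower in beta cells of HH HFD as well, at -1.75 for both. Gm26532, Dnase1l3, Tor1aip1, Ms4a4c and Gsn were the others among the 10 lowest, with log2 ratios from -1.31 to -1.23. The MHC class II genes differed by a small amount in the same direction, with 7 of 7 below 0 and 0 past 2-fold. Their median was -0.26, beside -0.01 over all genes, and -0.64 under the study's filter on cells. Cd74 was at -0.22 (-0.24 to -0.19), H2-Aa at -0.29 (-0.33 to -0.25), H2-Ab1 at -0.29 (-0.33 to -0.25) and H2-Eb1 at -0.26 (-0.31 to -0.22). All 8 MHC class I genes were below 0 and 0 were past 2-fold, with a median of -0.31, and the same list had a median of -0.33 in endothelial cells. In the same comparison the hormone and granule genes took 18022 CPM of WT and 40607 CPM of HH macrophage UMIs, and their part in these ratios was not tested. In SCD 6 of 6 MHC class II genes were above 0 and 0 past 2-fold, with a median of 0.06 beside 0.02 over all genes.

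Higher in HH in HFD were Pf4 and Mrc1, genes of macrophages that reside in connective tissue. Pf4, platelet factor 4, had 146 CPM in WT SCD and 181 in HH SCD, against 17.7 in WT HFD and 203 in HH HFD, so WT HFD was the library that stood apart. Its log2 ratio of HH to WT was 3.52 (2.64 to 4.55), from 17 of 124 and 7 of 68 cells. Mrc1, the mannose receptor, had 118, 126, 53.2 and 171 CPM. The 8 genes of that stromal macrophage list summed to 344, 201, 80.6 and 330 CPM.

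Cells with several transcripts of that list were few. Cells with UMIs of at least 2 of Lyve1, Folr2, Cd163, Mrc1, F13a1 and Cbr2 after thinning were 3 of 55 in WT SCD, 1 of 36 in HH SCD, 1 of 68 in WT HFD and 4 of 122 in HH HFD, or 9 of 281 in all. No test was run on so few cells, and the 6 genes of the choice describe them only. Among genes that the choice did not use, their summed UMIs held 3944 CPM of Pf4 against 49.6 in the other macrophages, 1500 against 9.19 of Ccl8, and 833 against 9.19 of Cfp, the complement regulator properdin. They held 722 CPM of the growth factor Igf1 against 3.68 and 1000 CPM of Adgre1 against 311. Il1b had 1 UMI in these 9 cells and 1456 in the other macrophages. Cd74 had 12444 against 38893 CPM, and H2-Aa 2833 against 14721. Lyve1 alone could not mark such cells, since beta cells had a UMI of it in 0.636% to 1.05% of thinned cells beside 0% to 1.82% of macrophages, at median depths of 24222 to 29927 and 5510.5 to 8976 UMIs before thinning.

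The Il1b transcript was detected in many macrophages of every library. In macrophages thinned to 2000 UMIs a UMI of Il1b was found in 83.6% of cells in WT SCD (71.2 to 92.2), 91.7% in HH SCD (77.5 to 98.2), 72.1% in WT HFD (59.9 to 82.3) and 59.8% in HH HFD (50.6 to 68.6). The unthinned shares were 87.5%, 92.1%, 86.8% and 68.5%. In beta cells, which do not make interleukin-1 beta, the thinned share was between 0.127% and 0.182%. Thinned to 1000 UMIs, the macrophage shares were 78.6%, 84.2%, 54.4% and 45.2%, with both SCD libraries again above both HFD libraries.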

How the data were processed

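Islets were profiled with droplet single-cell RNA sequencing, 1 library per group. The authors aligned reads with Cell Ranger (6.0.2 in the file headers, 6.0 in the submitters' processing notes) to GRCm38 (mm10) and deposited filtered UMI counts per gene and barcode. No correction for free RNA had been applied to the deposited counts, and a subtraction of the beta cell profile was made here only as an alternative.

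Cells were kept with 1000 to 50000 UMIs, at least 500 genes and under 10% mitochondrial UMIs. Endothelial cells had UMIs of at least 4 of Plvap, Pecam1, Flt1, Kdr, Cdh5 and Egfl7, lymphocytes of at least 2 of Cd79a, Cd79b, Ms4a1, Cd3d, Cd3e, Cd3g and Trac, and beta cells at least 20% insulin UMIs. Classes come from these rules and not from an annotation by the authors. Members and gene lists were chosen with earlier results of these data known. Doublets were removed only as an alternative.

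UMIs were summed per library and class and scaled to CPM. Log2 ratios had exact conditional binomial intervals at the 95% level, with 3 counts in place of 0. Shares had Clopper-Pearson intervals and differences of shares an interval from both limits. Intervals cover counting error only, and between 253909 and 718355 macrophage UMIs stood behind each library. Genes named, besides list members, were the 10 highest and 10 lowest ratios of HH to WT, the 5 highest and 5 lowest of HFD to SCD, among genes with a mean of 100 CPM whose interval excluded 0, and the 15 largest class differences. Class contrasts used edgeR 4.0.16 (TMM, filterByExpr, quasi-likelihood, library as block) in R 4.3.3, with DESeq2 1.42.0 as an alternative. The block pairs classes of the same library, hence of the same mice. P-values of these contrasts measure the spread between the 4 libraries. Python 3.11.15, scanpy 1.11.5 (Scrublet) and scipy 1.17.1 were used. The steps were tested on simulated data. Promoters came from RefSeq (GRCm38.p6). Alternatives were other filters on cells, insulin limits, gates, scalings, minimum levels, thinning depths and left-out libraries.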

Additional observations from a re-analysis of the deposited data

Results flagged for a closer look

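For 8 of the genes among the 10 highest or 10 lowest ratios of HH to WT in either diet, the ratio of HH to WT changed sign from SCD to HFD, and 0 lay outside both of its counting intervals. With 1 library per group, whether the diets differ could not be tested. Log2 ratios of HH to WT in SCD and HFD were -4.11 and 3.06 for Gcg, -5.66 and 3.95 for Sst, -3.02 and 4.34 for Pyy, -1.17 and 1.86 for Chgb, -0.68 and 3.10 for Pcsk1n, and -3.09 and 2.45 for Ttr. These 6 are genes of endocrine cells, and the cell with most UMIs held 96.0% of Gcg, 91.0% of Ttr and 76.6% of Pyy in WT SCD, and 96.0% of Sst, 65.7% of Chgb and 29.6% of Pcsk1n in HH HFD. With cells of another class left out, Gcg was at 0.30 and 0.69, Ttr at 0.27 and 0.97, Pyy at 0.23 and 0.05, and Sst at -0.37 and -0.67, so that these 4 no longer changed sign. Cxcl9 was at 3.28 and -1.35, from 3 cells of HH SCD and 2 of WT SCD. Lyz1 was at 3.28 and -2.97, and 1 cell held all of its UMIs in HH SCD.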

How the results depend on the processing

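Comparisons of genotype and diet rest on 1 library each, and the depth of 253909 to 718355 macrophage UMIs limits them to genes of 50 CPM or more. No paired analysis was possible because each group had 1 library, for the comparisons between groups. In the class contrasts the library was the block, and leaving it out (no replicate block) gave 1839 higher and 1961 lower genes against endothelial cells and 925 and 328 against lymphocytes, a change of no count by over 1.5 times. Over 10 alternatives, 585 of 594 values of the named ratios kept their sign. The named genes were chosen for large ratios and the alternatives reuse the same counts, so most signs were fixed in advance. Removing predicted doublets took out 0 macrophages and a minimum of 100 CPM alters no ratio, so neither could change a sign.

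The share of macrophages under the study's filter was 0.536% in WT SCD, 0.348% in HH SCD and 0.661% in HH HFD, and with insulin under 2% it was 1.11% in WT SCD and 1.83% in HH HFD. Genes past 2-fold between genotypes in SCD numbered 84, and 396 under the study's filter, 134 with insulin under 2%, 137 with CPM taken without mitochondrial, ribosomal and hormone genes, and 26 with a minimum of 100 CPM. In HFD they numbered 69, and 231 under the study's filter and 25 at 100 CPM. Between diets they numbered 381 in WT and 184 at 100 CPM, and in HH 349, 568 under the study's filter and 163 at 100 CPM. A minimum of 100 CPM tests fewer genes by construction, and the study's filter leaves fewer cells.

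The MHC class II median of HH to WT in HFD (-0.26) was -0.64 under the study's filter, -0.17 with cells of another class left out and -0.19 with per-cell means. The cytokine median of HFD to SCD in WT (-3.28) was -2.50 under the study's filter. In HH (-2.55) it was -3.10 under that filter, -2.13 with 5 gate genes required, -2.13 with cells of another class left out, -2.16 without mitochondrial, ribosomal and hormone genes and -3.44 with per-cell means. The chemokine median was -1.14 in WT under the study's filter, -1.67 in WT with median-of-ratios factors, -1.02 in HH under the study's filter and -1.53 in HH with insulin under 2%. List medians at or beyond 2-fold numbered 11 over lists of 5 or more genes in the 4 comparisons, and 7 with cells of another class left out. The cause was not tested.

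With cells of another class left out, log2 ratios of HH to WT turned to -0.17 for Chga, 0.30 for Gcg, 0.27 for Ttr and 0.23 for Pyy in SCD, and to -0.67 for Sst and -0.16 for Resp18 in HFD. With insulin under 2%, Gcg was at 0.35 and Ttr at 0.82 in SCD, and with 5 gate genes Sst was at -0.74 in HFD. The cause was not tested. Against lymphocytes, leaving out 1 library gave 628 to 1079 higher and 141 to 585 lower genes, and 911 were lower with no filter on low counts.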
